A study of Mus musculus with 16 samples.

Results

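The troponins and myosin light chains of skeletal muscle exist as slow and fast isoforms, each the product of its own gene, and 10 of these genes were followed here among the 35415 genes counted. The 5 slow isoforms were Tnni1, Tnnt1, Tnnc1, Myl2 and Myl3, and the 5 fast isoforms were Tnni2, Tnnt3, Tnnc2, Mylpf and Myl1. They were chosen by gene symbol. All 10 genes were found in the count and FPKM tables, and all 10 passed the filter on low counts.

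The RNA came from the gastrocnemius of 16 male wild-type BALB/c mice, with 4 mice in each group. The C group was tumor-free and untrained, the E group was tumor-free and underwent aerobic treadmill training, the T group bore CT26 tumors without training, and the TE group combined CT26 tumors with training. The CT26 line derives from a colon carcinoma of BALB/c mice. It was injected under the skin of the left hind limb region. Mice without a tumor received saline, and mice without training were placed on a treadmill that stood still. Mice are named below by group and replicate number, as in T4, and the same number in different groups stands for different mice. The comparisons ask whether the slow and fast isoforms differ with the tumor (T vs C), with training (E vs C), with training in tumor-bearing mice (TE vs T), and with the tumor in trained mice (TE vs E), and whether the effect of training differs between tumor-bearing and tumor-free mice (the interaction).

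Troponin sits on the actin filament as a complex of 3 subunits. Troponin C binds calcium, troponin I holds back the contact of actin and myosin, and troponin T ties the complex to tropomyosin, so that calcium switches contraction on. The myosin light chains wrap the neck of the myosin head, with a regulatory light chain that can be phosphorylated and an essential light chain beside it. Slow, oxidative fibers, which carry the myosin heavy chain gene Myh7, use the slow set of genes, and fast fibers, which carry Myh2, Myh1 or Myh4, use the fast set. The gastrocnemius of the mouse is a mostly fast muscle. Tnnc1, Myl2 and Myl3 are also the isoforms of the heart ventricle. In whole tissue, fewer slow fibers and less slow RNA per fiber cannot be told apart.

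In GRCm39 and the GENCODE annotation, Tnni1 lay on chromosome 1 (135707172 to 135738727), Tnnt1 on chromosome 7 (4507567 to 4519381), Tnnc1 on chromosome 14 (30930232 to 30933708), Myl2 on chromosome 5 (122238848 to 122251545) and Myl3 on chromosome 9 (110570929 to 110599396). Of the fast genes, Tnni2 (141995545 to 141998147), Tnnt3 (142048605 to 142070280) and Mylpf (126807207 to 126813470) lay on chromosome 7, Tnnc2 on chromosome 2 (164619075 to 164621887) and Myl1 on chromosome 1 (66963454 to 66984642). The fast genes Tnni2 and Tnnt3 were 50.5 kb apart with the gene Lsp1 between them. The slow gene Tnnt1 lay next to the cardiac troponin I gene Tnni3, at a distance of 1.92 kb, and Tnni1 was 25.0 kb from the cardiac troponin T gene Tnnt2. Tnnt1, Tnnc1, Myl2, Myl3, Tnnt3, Tnnc2 and Mylpf overlap a gene on the opposite strand, and the strand and overlap settings of the counting are not given in the sources used here, so how reads of the overlap were counted is not known. Counts were made per gene, so that the spliced forms of Tnnt3, or the long and short essential light chains from Myl1, were counted together.

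Start regions are shown because the slow members varied together between mice, as described below. RefSeq (GRCm38.p6) gave start regions for 8 of the 10 members, and each was matched to a single place in GRCm39, whose coordinates are given. Both starts listed for Myl2 lay outside its GENCODE gene, 8061 and 7596 bases upstream, and are not printed. Of the start regions printed below, only that of Tnnc1 reached the first base of its GENCODE gene. The others lay inside the gene, farthest from its first base for Myl3, Tnni1 and Mylpf. The motif counts therefore describe these RefSeq starts only. The 150 bases before the start are given 5′ to 3′ for the other members, with the first of the 2 starts for Tnni1, and capitals mark the E-box (CANNTG), the MCAT element (CATTCC) and the TATA box (TATAAA), on either strand.
Tnni1 (chr1:135727009-135727158, plus strand): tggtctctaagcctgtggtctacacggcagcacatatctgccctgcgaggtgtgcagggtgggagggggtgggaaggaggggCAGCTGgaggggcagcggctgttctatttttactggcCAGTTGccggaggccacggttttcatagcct
Tnnt1 (chr7:4518975-4519124, minus strand): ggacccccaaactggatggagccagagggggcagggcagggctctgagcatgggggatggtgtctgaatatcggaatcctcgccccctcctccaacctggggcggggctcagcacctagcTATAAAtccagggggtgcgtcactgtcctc
Tnnc1 (chr14:30930119-30930268, plus strand): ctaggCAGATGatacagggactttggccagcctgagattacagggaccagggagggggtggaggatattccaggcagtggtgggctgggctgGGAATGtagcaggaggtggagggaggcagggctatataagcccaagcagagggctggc
Myl3 (chr9:110592596-110592745, plus strand): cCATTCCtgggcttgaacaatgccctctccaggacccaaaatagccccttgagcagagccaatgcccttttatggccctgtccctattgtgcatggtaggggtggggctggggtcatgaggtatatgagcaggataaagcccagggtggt
Tnnc2 (chr2:164621655-164621804, minus strand): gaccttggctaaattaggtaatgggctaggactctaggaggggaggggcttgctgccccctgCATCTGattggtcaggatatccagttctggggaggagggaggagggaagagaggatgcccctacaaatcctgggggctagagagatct
Mylpf (chr7:126810630-126810779, plus strand): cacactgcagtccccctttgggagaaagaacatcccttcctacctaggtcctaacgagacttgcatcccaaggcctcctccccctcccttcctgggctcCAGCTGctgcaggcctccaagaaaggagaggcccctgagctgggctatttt
Myl1 (chr1:66984216-66984365, minus strand): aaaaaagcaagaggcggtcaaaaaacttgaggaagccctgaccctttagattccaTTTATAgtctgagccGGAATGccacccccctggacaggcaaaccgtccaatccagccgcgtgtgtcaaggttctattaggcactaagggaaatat

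An E-box, the site of myogenic factors such as MyoD, was present in 4 of these 7 windows (Tnni1, Tnnc1, Tnnc2 and Mylpf), beside 47.7% of 32851 RefSeq start regions of the same length. The MCAT element, bound by TEAD factors, was present in 3 of 7 (Tnnc1, Myl3 and Myl1), beside 7.59% of all regions. The string TATAAA was present in 2 of 7 (Tnnt1 and Myl1), beside 7.57%. It lay 30 bases before the start in Tnnt1, and 95 bases before it and on the opposite strand in Myl1. Variants of the TATA box, such as tatataa in the Tnnc1 window, were not searched for. The NFAT core (GGAAA) was present in 1 of 7 (Myl1), beside 37.6%, and the MEF2 site in 0 of 7, beside 1.67%. No motif was found in all 4 slow windows.

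Library totals ranged from 35628211 to 37635741 counts, and the 10 genes together took 4.06% to 5.44% of all counts in a mouse. Even the lowest count of a member was 979 (Tnni1 in C2), so counting error was small beside the spread between mice. Markers of skeletal muscle fibers were high in all libraries, at 41491 to 47256 FPKM in sum over 8 genes, and the cardiac markers Tnni3 and Nppa did not pass the filter on low counts.

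Per length, the fast isoforms lay far above the slow isoforms. Levels are given as FPKM, which divides counts by gene length and library total. The mean over 16 mice was 12824 ± 914 FPKM (SD) for Tnnt3, 10539 ± 1075 for Mylpf, 10137 ± 773 for Tnnc2, 9439 ± 747 for Tnni2 and 3362 ± 379 for Myl1. The slow genes followed with Myl3 at 226 ± 80.7 FPKM, Tnnc1 at 139 ± 65.2, Myl2 at 106 ± 48.3, Tnnt1 at 101 ± 46.6 and Tnni1 at 20.004 ± 9.94. Neighbours in this order differed in every mouse only for Tnni2 over Myl1, Myl1 over Myl3, Myl3 over Tnnc1 and Tnnt1 over Tnni1. Mylpf exceeded Tnnc2 in 11 of 16 mice and Myl2 exceeded Tnnt1 in 9 of 16 mice, so these pairs cannot be ordered. The order depends on the gene length used. With the exon union of GENCODE in place of the authors' length, a choice made after seeing the data, Tnnt3 fell behind Myl1 (3320 against 3898 FPKM) and Myl3 fell behind Tnnc1 and Myl2 (67.3 against 90.8 and 72.4 FPKM), while all fast genes stayed above all slow genes.

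The subunits of a complex were not equal in level. With the authors' gene lengths, the 3 fast troponin genes lay within 1.45-fold of each other in all mice: Tnnt3 over Tnni2 ranged from 1.25 to 1.45 and Tnnc2 over Tnni2 from 0.983 to 1.15. With the exon union lengths the highest of the 3 was 2.13 to 2.56 times the lowest. The slow troponin genes were spread further, with Tnnc1 at 5.26 to 8.65 times and Tnnt1 at 3.62 to 6.49 times the level of Tnni1. These are ratios of RNA per length and not of protein.

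Tnni1, the slow inhibitory subunit, was the member that varied most between mice. Its level was 17.3, 10.03, 16.3 and 33.4 FPKM in C1 to C4, and 17.5, 13.7, 19.3 and 17.8 FPKM in E1 to E4. It was 17.4, 11.8, 36.6 and 53.8 FPKM in T1 to T4, and 16.1, 15.02, 10.04 and 14.0 FPKM in TE1 to TE4. C4, T3 and T4 stood above all other mice, and T1 and T2 lay among the other groups.

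Tnnt1, the slow subunit that binds tropomyosin, had the same 3 mice at the top. Its level was 89.9, 62.1, 90.6 and 163 FPKM in C1 to C4, and 94.9, 67.2, 105 and 109 FPKM in E1 to E4. It was 81.1, 76.6, 133 and 244 FPKM in T1 to T4, and 82.9, 76.8, 62.5 and 71.8 FPKM in TE1 to TE4. The TE mice lay within 1.33-fold of each other, and the T mice within 3.19-fold.

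Tnnc1, the calcium-binding subunit of slow and cardiac muscle, was at 145, 73.2, 125 and 241 FPKM in C1 to C4, and at 131, 96.3, 145 and 154 FPKM in E1 to E4. It was at 116, 92.3, 193 and 322 FPKM in T1 to T4, and at 116, 104, 83.7 and 87.3 FPKM in TE1 to TE4. T4 and C4 were again highest, followed by T3, and C2 was lowest.

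Myl2, the slow regulatory light chain, was at 102, 83.9, 78.6 and 151 FPKM in C1 to C4, and at 91.0, 65.7, 96.6 and 104 FPKM in E1 to E4. It was at 85.2, 84.0, 194 and 241 FPKM in T1 to T4, and at 93.8, 81.9, 64.4 and 84.2 FPKM in TE1 to TE4. T4, T3 and C4 were the 3 highest mice.

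Myl3, the slow essential light chain, was at 219.8, 138, 229 and 398 FPKM in C1 to C4, and at 209.9, 149.6, 232 and 265 FPKM in E1 to E4. It was at 158, 212 and 294 FPKM in T1 to T3, at 399 FPKM in T4, and at 214, 192, 138 and 161 FPKM in TE1 to TE4. C4 and T4 were nearly equal here. Myl3 had the narrowest spread of the slow members over the 16 mice, at 2.90-fold, against 5.37-fold for Tnni1, 4.40-fold for Tnnc1, 3.94-fold for Tnnt1 and 3.74-fold for Myl2.

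**Figure D1:**
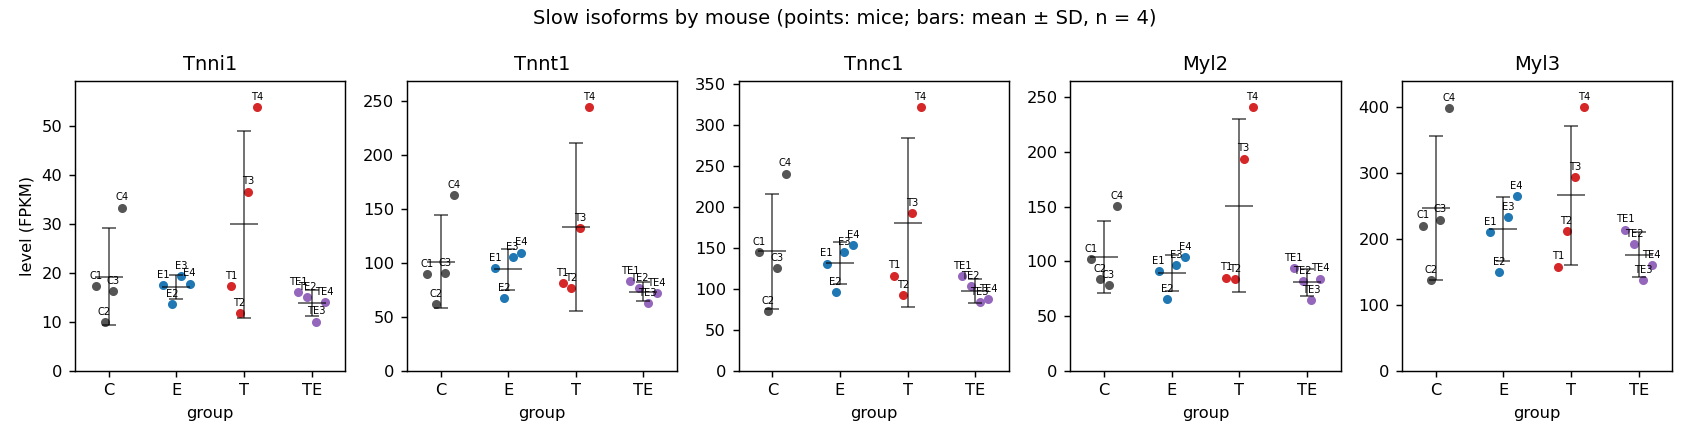
Level (FPKM, linear axis from 0) of the 5 slow isoforms in each mouse by group, with the mean and SD of 4 mice as bars and the mouse written at each point. C4, T3 and T4 are the 3 highest mice in each panel, T4 reaches 53.8 FPKM for Tnni1 and 399 FPKM for Myl3, and the TE mice lie close together.

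The fast isoforms spanned a narrow range. Tnni2, the fast inhibitory subunit, was at 10209, 11072, 9362 and 9355 FPKM in C1 to C4 and at 9550.1, 8414, 9616 and 9118 FPKM in E1 to E4. It was at 9410.4, 9660.2, 8338 and 8015 FPKM in T1 to T4 and at 9883, 10021, 9688 and 9313 FPKM in TE1 to TE4. T4 and T3 were the lowest mice, and the 4 groups overlapped.

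Myl1, the fast essential light chain, was at 3829.7, 3828, 3315 and 3658 FPKM in C1 to C4 and at 3723, 3287, 3267 and 3329 FPKM in E1 to E4. It was at 3394, 3483, 2331 and 2762 FPKM in T1 to T4 and at 3535, 3397, 3411 and 3248 FPKM in TE1 to TE4. T3 and T4 were the lowest mice. Over 16 mice Myl1 spanned 1.64-fold, Mylpf 1.54-fold, Tnni2 1.38-fold, Tnnc2 1.32-fold and Tnnt3 1.32-fold.

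Mylpf, the fast regulatory light chain, ranged from 7958 FPKM in T3 to 12271 FPKM in C2. In contrast to Myl1 it was not low in T4, at 11543 FPKM, so that Mylpf over Myl1 was 4.18 in T4 and 2.70 to 3.41 in all other mice. Tnnc2 ranged from 8405 FPKM in T3 to 11126 FPKM in C2, and Tnnt3, whose protein anchors the fast complex, from 10815 FPKM in T4 to 14259 FPKM in C1.

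**Figure D2:**
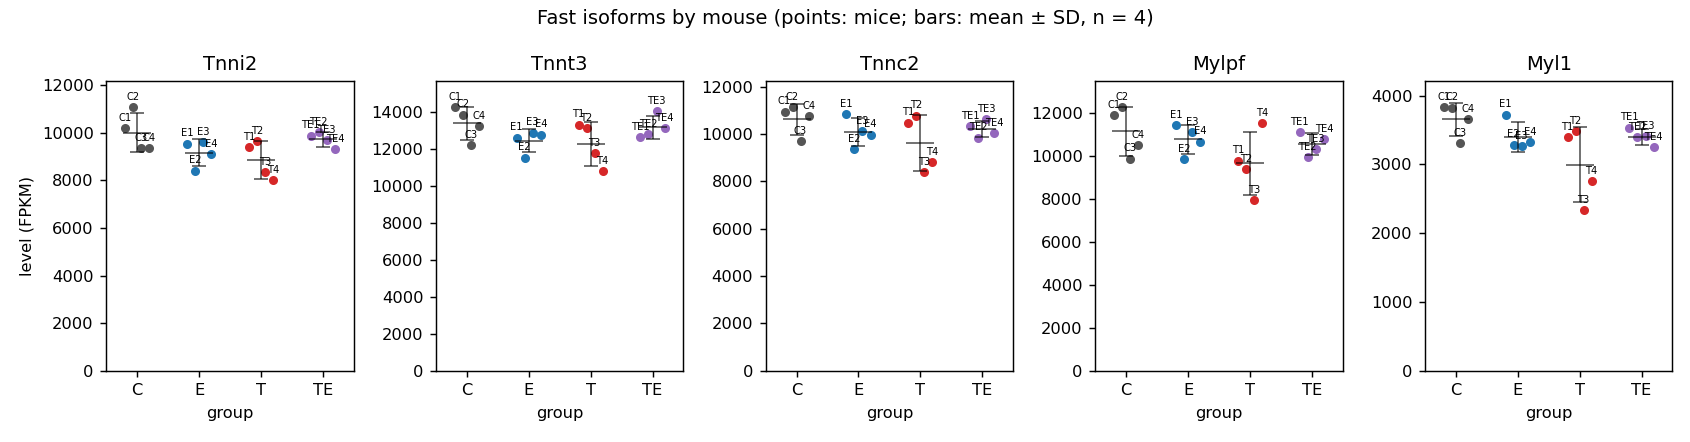
Level (FPKM, linear axis from 0) of the 5 fast isoforms in each mouse by group, with the mean and SD of 4 mice as bars. All 4 groups overlap in each panel, and T3 and T4 are the lowest 2 mice for Tnni2, Tnnc2 and Myl1.

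The slow share, which is the slow isoform as a percentage of slow plus fast FPKM, was small for each pair. It was 0.0905% to 0.667% for troponin I, 0.442% to 2.21% for troponin T, 0.654% to 3.52% for troponin C, 0.618% to 2.38% for the regulatory light chain and 3.47% to 12.6% for the essential light chain. These shares depend on the gene lengths as well. With the exon union lengths, the mean over 16 mice was 1.75% in place of 6.41% for the essential light chain and 1.90% in place of 0.796% for troponin T, so the pairs cannot be ordered by their share. Over the sum of the 5 pairs the share was 1.11%, 0.699%, 1.20% and 2.03% in C1 to C4, and 1.12%, 0.915%, 1.26% and 1.40% in E1 to E4. It was 0.977%, 1.02%, 2.14% and 2.92% in T1 to T4, and 1.09%, 1.01%, 0.739% and 0.890% in TE1 to TE4. The group values were 1.26% ± 0.559 for C, 1.17% ± 0.206 for E, 1.76% ± 0.940 for T and 0.932% ± 0.152 for TE (mean ± SD, n = 4). The SD of the T group exceeded each difference between the group means, and T1 and T2 lay within the range of the TE mice. No test was run on these shares.

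**Figure D3:**
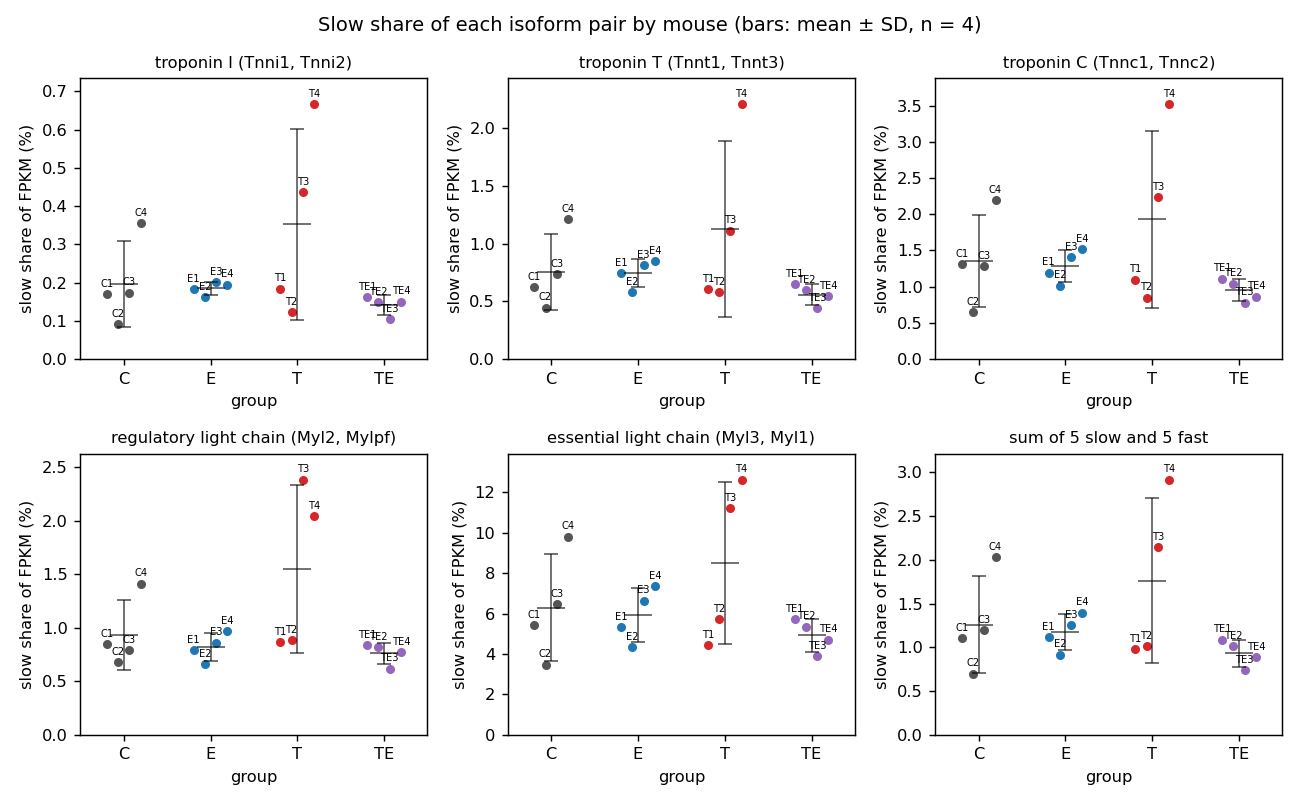
Slow share of FPKM (%) of the 5 isoform pairs and of their sum, by mouse and group, with the mean and SD of 4 mice as bars. T4 has the highest summed share at 2.92%, followed by T3 at 2.14% and C4 at 2.03%.

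Tumor-bearing against control mice was compared first. In the edgeR quasi-likelihood test, Benjamini-Hochberg adjusted over 14749 genes, 0 of the 10 members were called at an adjusted p under 0.05, where 0.678% of all genes tested were called. The slow members had values of 0.13 to 0.65 on the log2 scale for T vs C (median 0.42), and the fast members -0.26 to -0.10 (median -0.15), beside a median of 0.00 over all genes. Tnni1 had the highest value, at 0.65 ± 0.37 (SE, adjusted p = 0.455), followed by Myl2 at 0.56 ± 0.28 (adjusted p = 0.394). Myl1 had the lowest, at -0.26 ± 0.11 (unadjusted p = 0.0308 and adjusted p = 0.290 in edgeR). It was the single member at an unadjusted p under 0.05, which 5.96% of all genes reached in the same direction and 2093 genes in either direction. FPKM ranges of T and C overlapped for all 10 members, and did not overlap for 6.85% of genes. The positive slow values rested on T3 and T4. These 2 mice were left out because their slow levels were highest, so lower slow values without them were fixed in advance. All 5 slow members then had values below 0, from -0.44 to -0.25. With C4 left out as well, the slow values lay near 0, at 0.054 for Tnni1, 0.011 for Tnnt1, -0.090 for Tnnc1, -0.014 for Myl2 and -0.037 for Myl3. The value of Myl1 rested on T3 and T4 as well, and was -0.040 without them (unadjusted p = 0.617 in edgeR). Without T4 alone Tnni1 was at 0.20 and Tnnc1 at -0.11, and without C4 alone Tnni1 was at 1.05 and Tnnc1 at 0.67 on the log2 scale.

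For training in tumor-free mice, all 10 members had fitted values below 0, and the sign of 4 slow members rested on C4. In E vs C edgeR called 0 of 10 members at an adjusted p under 0.05 against 0.0881% of all genes. In the fit over all mice the values ran from -0.26 for Myl2 to -0.09 for Mylpf, with none at an unadjusted p under 0.05. The smallest unadjusted p was that of Tnni2 (-0.16 ± 0.08 SE, unadjusted p = 0.0555 and adjusted p = 0.366 in edgeR). In the fit without T3 and T4, Tnni2 (unadjusted p = 0.0212 in edgeR), Myl1 (0.0385) and Tnnt3 (0.0440) were under 0.05, none of them called. With the replicate number as a block, Tnni2 had an unadjusted p of 0.0425 in edgeR and was not called. The FPKM ranges of E and C overlapped for all 10 members and did not overlap for 8.67% of genes. Leaving out C4 turned Tnni1, Tnnt1, Tnnc1 and Myl3 to between 0.09 and 0.19 on the log2 scale. The fast members kept negative values without any single mouse.

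Trained against untrained tumor-bearing mice gave the widest contrast between slow and fast members. All 5 slow members were lower in TE than in T by the fitted value, at -1.13 ± 0.38 for Tnni1, -0.91 ± 0.29 for Myl2, -0.90 ± 0.34 for Tnnc1, -0.87 ± 0.31 for Tnnt1 and -0.60 ± 0.28 for Myl3 (log2 ± SE). The mean level of Tnni1 was 29.9 ± 19.2 FPKM in T and 13.8 ± 2.63 FPKM in TE, and that of Myl2 151 ± 79.1 and 81.1 ± 12.3 FPKM (SD, n = 4). The fitted values correspond to 0.458, 0.533, 0.537, 0.546 and 0.658 times the level in T. All 5 fast members had values from 0.07 to 0.16. In edgeR 0 of 10 members were called at an adjusted p under 0.05, as were 0% of all 14749 genes. The adjusted p was 0.717 for Myl2, 0.724 for Tnni1, 0.758 for Tnnt1, 0.772 for Tnnc1 and 0.847 for Myl3. The slow members reached unadjusted p of 0.00540 for Myl2, 0.00802 for Tnni1, 0.0124 for Tnnt1, 0.0165 for Tnnc1 and 0.0482 for Myl3 in edgeR, and 3.01% of all genes were lower at an unadjusted p under 0.05. The levels of the 5 slow genes were correlated between mice, as given below, so these 5 p-values are not independent of each other. FPKM ranges of TE and T overlapped for all 10 members and did not overlap for 2.47% of genes.

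This difference depended on T3 and T4, the T mice with the highest slow levels. They were left out for that reason, so smaller slow differences without them were fixed in advance. The fit without them also holds fewer mice. Without T4, the slow values were -0.67 to -0.33, and Myl2 was the single slow member left at an unadjusted p under 0.05. Without T3 and T4, the slow values were -0.14 to -0.10 with 0 of 5 at an unadjusted p under 0.05. The fast values were then -0.0064 for Tnni2, -0.042 for Tnnt3, -0.092 for Tnnc2, -0.053 for Myl1 and 0.10 for Mylpf, so that 4 of 5 had turned below 0. Leaving out T1 or T2 instead moved Tnni1 to -1.31 or -1.39. In limma-voom with sample weights, 1 of 5 slow members stayed at an unadjusted p under 0.05, with values from -0.80 to -0.49.

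**Figure D4:**
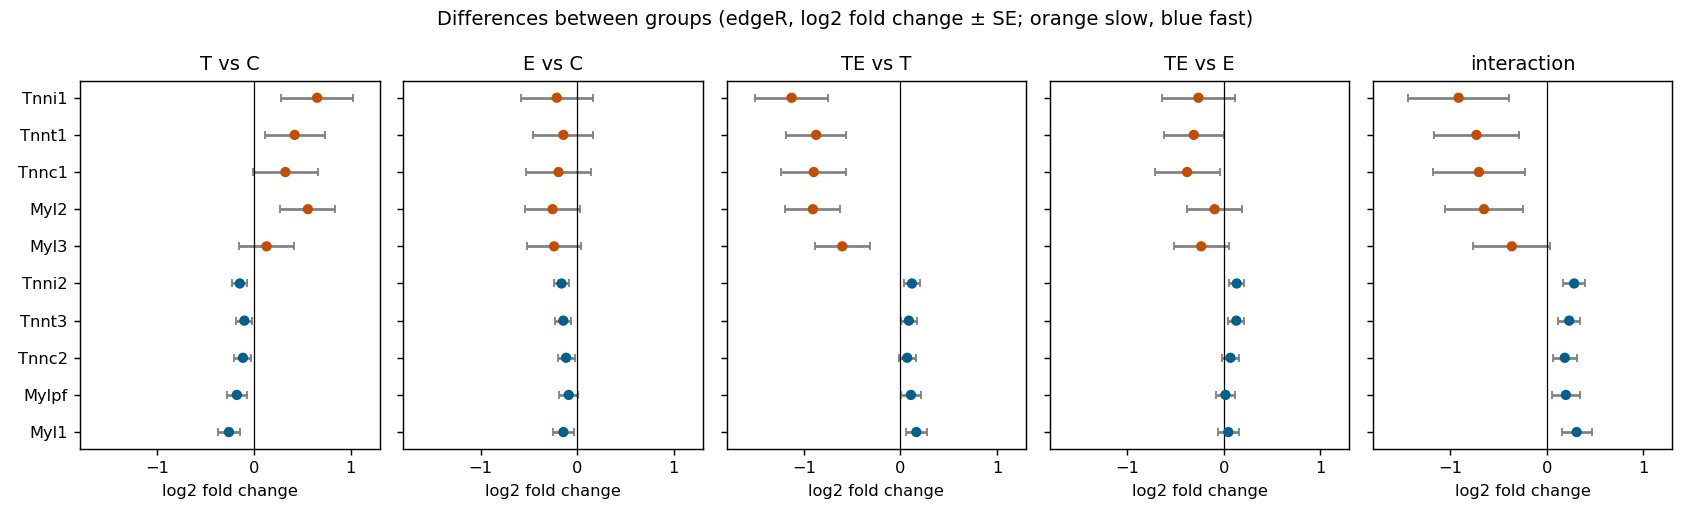
Log2 fold change with its SE for the 10 members in the 4 comparisons and the interaction (edgeR, orange for slow and blue for fast isoforms). Slow members lie between -1.13 and -0.60 in TE vs T and between 0.13 and 0.65 in T vs C, and 0 members are called after adjustment in any panel.

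Between tumor-bearing and tumor-free trained mice, edgeR called 0 of 10 members at an adjusted p under 0.05 in TE vs E, against 0.231% of all genes. The slow members had values from -0.38 for Tnnc1 to -0.09 for Myl2, and the fast members from 0.02 for Mylpf to 0.13 for Tnni2. The values of Myl2 and Mylpf did not keep their sign when 1 mouse was left out. Myl2 was at 0.0034 without E4, and Mylpf was at -0.014 without E2 and at -0.0015 without TE1. All adjusted p were at least 0.646. The FPKM ranges of TE and E overlapped for all 10 members and did not overlap for 6.73% of genes.

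The interaction asks whether training had another effect in tumor-bearing than in tumor-free mice. In edgeR, 0 of 10 members were called at an adjusted p under 0.05, beside 0% of all genes. The slow members had interaction values from -0.92 for Tnni1 to -0.36 for Myl3 and the fast members from 0.18 for Tnnc2 to 0.31 for Myl1. Tnni2 was the single member at an unadjusted p under 0.05 (0.28 ± 0.11 SE, unadjusted p = 0.0223 and adjusted p = 0.487 in edgeR), which 3.7% of all genes reached in the same direction. Without T3 and T4 the slow interaction values were 0.01 to 0.16, and Tnni2 was at 0.16 (unadjusted p = 0.140 in edgeR). With C4 left out as well, the slow values were negative again, from -0.32 for Tnnt1 to -0.077 for Myl2. Tnni2 was then at 0.19 (unadjusted p = 0.0929 in edgeR).

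Between single mice the slow members varied as a block. Over 16 mice, log2 FPKM of the 10 pairs of slow genes correlated with Pearson's r of 0.86 to 0.98, and after taking out the group means with r of 0.86 to 0.98. Without C4, T3 and T4, r was 0.65 to 0.95 over 13 mice. Each of the 25 pairs of a slow with a fast gene had a negative r, from -0.68 to -0.01, and after taking out the group means 20 of the 25 were negative, with the highest at 0.19. Without the same 3 mice, 16 of the 25 were negative, from -0.33 to 0.49. The 10 pairs of fast genes had r of 0.30 to 0.93. These are descriptions, since the genes of a pair were measured in the same library of each mouse and share its scaling.

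The summed slow level also followed Myh7, the slow myosin heavy chain, which was not among the members. Myh7 was at 29.0, 14.3, 28.8 and 55.6 FPKM in C1 to C4, and at 29.1, 26.0, 34.7 and 38.8 FPKM in E1 to E4. It was at 24.6, 19.7, 48.4 and 77.1 FPKM in T1 to T4, and at 27.8, 24.2, 19.7 and 16.6 FPKM in TE1 to TE4. Its log2 level correlated with that of the summed slow members with Pearson's r = 0.95 and Spearman's rho = 0.94 over 16 mice. Leaving out the 2 mice farthest from the median, T4 and C4, left r = 0.90, and leaving out C4, T3 and T4 left r = 0.85. The correlation with the summed fast members was -0.46 (rho = -0.29), and -0.06 without C4, T3 and T4.

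**Figure D5:**
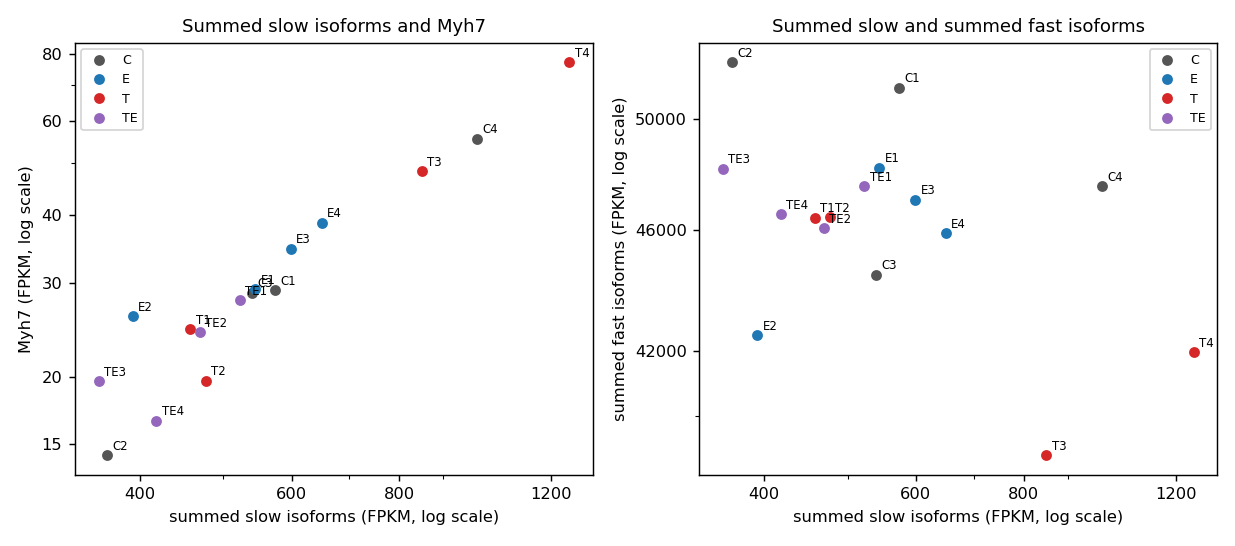
Summed level of the 5 slow isoforms (FPKM, log axis) in each mouse against Myh7 (left) and against the summed 5 fast isoforms (right), both on log axes and coloured by group. Myh7 follows the slow sum with r = 0.95, T4 is highest for both, and the fast sum is lowest in T3.

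Of 10183 other genes with a mean FPKM of at least 1, the 10 with the highest correlation to the summed slow level were Myh6, Myh7, Tpm3, Atp2a2, Casq2, Strit1, Coq8a, Xpo4, Lgi1 and Myl12a, with r from 0.82 to 0.97 over 16 mice. Tpm3 is the slow tropomyosin, Atp2a2 the slow and cardiac calcium pump, Casq2 the slow and cardiac calsequestrin, and Strit1 a small peptide that acts on that pump. Without C4, T3 and T4, r stayed at 0.92 for Myh6, 0.87 for Tpm3, 0.85 for Myh7 and 0.80 for Atp2a2. It fell to 0.68 for Strit1, 0.65 for Casq2, 0.49 for Coq8a and Xpo4, 0.47 for Lgi1 and 0.28 for Myl12a. Myh6, the heart atrial heavy chain, is a near-identical neighbour of Myh7, and reads shared by both genes make its level uncertain.

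T4 and T3 differed in other genes of muscle. T4 had the highest level of all 5 slow members, together with 11.6 FPKM of Myh3, the embryonic heavy chain, against 1.27 FPKM in T3 and 0.22 to 0.54 FPKM in all other mice. Myl6b, a light chain of slow muscle and non-muscle cells, was at 26.2 FPKM in T4, 11.6 FPKM in T3 and at most 7.20 FPKM elsewhere. Tnnt2, the cardiac and developmental troponin T, was at 8.31 FPKM in T4, and Myl4, an embryonic and atrial light chain, at 1.49 FPKM. The highest values of the other mice were 2.72 FPKM for Tnnt2 and 0.34 FPKM for Myl4. T3 had the highest levels of Ankrd2 and Csrp3, stretch-responsive genes of muscle, at 296 and 374 FPKM against at most 108 and 148 FPKM in all other mice. Its ratio of Myl2 to Tnnt1 was the highest of the 16 mice, at 1.46. C4 had neither pattern, with 0.48 FPKM of Myh3 and 72.6 FPKM of Ankrd2. The 5 neutrophil markers summed to 81.1 FPKM in T4, 32.6 in T3 and 1.22 in C4, within ranges of 14.2 to 81.1 in T, 1.22 to 7.17 in C, 1.27 to 8.04 in E and 19.5 to 33.6 in TE. The macrophage markers summed to 121 FPKM in T4, 117 in TE4 and 103 in T3, against 35.3 to 83.2 in the other mice. Most of this sum was Lyz2, at 110 FPKM in T4, 109 in TE4 and 93.7 in T3. Adgre1 (0.85 FPKM in T4 and 0.70 in T3) and Csf1r (4.23 and 4.92) were highest in T3 and T4. Cd68 was highest in T4, at 5.39 FPKM, but at 3.97 FPKM in T3 it lay below TE1, at 5.04 FPKM. The 3 adipocyte markers summed to 143 FPKM in T3 and 120 in T4 against 10.5 and 49.0 in T1 and T2, and to 11.1 to 66.1 in C, 36.04 to 201 in E and 33.5 to 82.8 in TE. The 4 smooth muscle markers summed to 195 FPKM in T3 and 125 in T4 against 105 and 139.6 in T1 and T2, and to 117 to 148 in C, 169 to 195 in E and 117 to 139.6 in TE. The part of these cells in the slow levels was not tested.

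Other genes of the slow program had mostly the same sign as the slow members in TE vs T and T vs C. Of 11 slow fiber genes, 0 were called in any comparison. In TE vs T all 11 were lower by the fitted value, 9 of them at an unadjusted p under 0.05, which 3.01% of all genes reached in that direction, with a median of -0.63 on the log2 scale beside 0.00 over all genes. Without T3 and T4, 7 of 11 were lower by the fitted value, 1 of them at an unadjusted p under 0.05, and the median was -0.057. In the fit over all mice, the smallest p belonged to Ankrd2 (-1.30, unadjusted p = 0.00123, adjusted p = 0.693 in edgeR), followed by Myoz2, a Z-disc protein of slow fibers (-0.57), and Mybpc1, the slow myosin-binding protein C (-0.38). Myh7 was at -0.95 ± 0.38 SE (adjusted p = 0.810). Without T3 and T4, Ankrd2 was at -0.76, Myoz2 at -0.13, Mybpc1 at -0.087 and Myh7 at -0.042. In T vs C the median was 0.43. It was -0.18 without T3 and T4 and 0.033 without C4, T3 and T4, where 6 of 11 were higher by the fitted value. In the fit over all mice T vs C had Myoz2 at 0.61 (adjusted p = 0.111), Ankrd2 at 1.07 and Mybpc1 at 0.38, and without T3 and T4 these were at 0.17, 0.54 and 0.082. In E vs C the median was -0.03 and in TE vs E -0.08. This list shares the mice with the members, and the list was drawn up with these data known.

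Of 10 fast fiber genes, 0 were called in any comparison, with medians of 0.06 in T vs C, -0.13 in E vs C, -0.03 in TE vs T and 0.12 in TE vs E, where the fast members had medians of -0.15, -0.14, 0.11 and 0.07. Myh2, the heavy chain of fast oxidative fibers, was at 0.47 ± 0.13 SE in T vs C (adjusted p = 0.106) and at -0.39 ± 0.13 in TE vs T (adjusted p = 0.724). T3 and T4 were highest, at 576 and 536 FPKM against 338 and 428 FPKM in T1 and T2, and without them Myh2 was at 0.20 and -0.12. Myh4, of the fastest fibers, was at 0.06 and -0.03, and Myh1 at 0.15 and -0.04, in the same comparisons. Actn3, which crosslinks actin in fast fibers, was at -0.28 in E vs C (adjusted p = 0.209) and at 0.31 in TE vs E (adjusted p = 0.247).

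Of 12 partners of troponin on the thin filament, 0 were called. Lmod2, which lengthens the actin filament, was at -0.55 in TE vs T (unadjusted p = 0.000747, adjusted p = 0.689 in edgeR), and Actn2 was at 0.45 in T vs C and -0.44 in TE vs T. Without T3 and T4, Lmod2 was at -0.36 in TE vs T, and Actn2 was at 0.22 and -0.22. Of 13 cardiac, smooth and developmental isoforms, 11 were tested and 0 were called. Myh3 was at 3.17 in T vs C (adjusted p = 0.078 in edgeR), with the level of 11.6 FPKM in T4 given above, and at 0.15 without T3 and T4. Of 7 kinases and phosphatases of the light chains, 0 were called. Mylk, the smooth muscle light chain kinase, was at 0.51 in E vs C (adjusted p = 0.103).

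Of 28 regulators of the slow and fast programs, 0 were called in any comparison. In T vs C 8 had higher values and 0 lower at an unadjusted p under 0.05, where 8.23% of all genes were higher and 5.96% lower. Without T3 and T4, 6 were higher and 1 lower at that p, and without C4, T3 and T4, 4 were higher and 1 lower. The shares of all genes in these smaller fits are not given here, so these counts have no background beside them. The smallest p in all mice were those of Esrrg, a nuclear receptor of oxidative muscle, at 0.58 (adjusted p = 0.078), Ppargc1a, a coactivator of mitochondrial genes, at 0.39 (adjusted p = 0.1003) and Tead1 at 0.39 (adjusted p = 0.115). Esrrg was at -0.47 in TE vs T (adjusted p = 0.693) and at -0.78 in the interaction (adjusted p = 0.420). Nfatc2, a target of the calcium-dependent phosphatase calcineurin, was at -0.58 in TE vs E (adjusted p = 0.109) and at -0.49 in TE vs T (unadjusted p = 0.00256, adjusted p = 0.693 in edgeR). Without T3 and T4, Nfatc2 was at -0.58 and Esrrg at -0.50 in TE vs T, neither of them called. Ppargc1a was also higher by the fitted value in E than in C, at 0.37 (adjusted p = 0.153).

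Markers of other cell types differed between groups. All 5 neutrophil markers were called higher in T than in C (edgeR, adjusted p of 0.0103 to 0.0147). Of 4 tendon markers, Fmod and Tnmd were called higher in E than in C, at 1.99 and 1.56, and lower in TE than in E, at -1.62 and -1.57. Comp (adjusted p = 0.0515 and 0.0982 in edgeR) and Scx (-0.41 and 0.31) were not called in these comparisons. Of 3 endothelial markers, Kdr was called lower in T than in C, at -0.68, while Pecam1 (0.37) and Cdh5 (-0.15) were not called. Lymphoid markers summed to 32.8 FPKM in TE4 and to at most 11.4 FPKM in all other mice. The cardiac markers Tnni3 and Nppa were below the filter, so that Myh6 and Ryr2 remained of that list. The part of these cells in the levels of the members was not tested.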

How the data were processed

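PolyA RNA of 16 gastrocnemius samples was sequenced, 4 mice per group. The authors trimmed reads with fastp 0.20.1, aligned them to GRCm39 with HISAT2 2.1.0 and counted them per gene with HTSeq 0.11.2 (versions from the submitters' processing notes). The authors deposited raw counts and FPKM values. For 11907 genes with higher counts, FPKM was found to be the count per length of the gene and per library total. The library kit is named differently in the labels and the methods. The annotation and strand setting are not given in the sources used here. There were 0 columns of other samples.

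Counts were tested with edgeR 4.0.16 in R 4.3.3: filterByExpr (14749 of 35415 genes), TMM factors, 1 coefficient per group over all 16 mice, quasi-likelihood tests (two-sided), and Benjamini-Hochberg adjustment within each comparison. Slow shares and correlations used FPKM. They are given without a p, although a permutation test had been planned for the correlations. In the smallest library 3 counts stand for 0.0842 CPM. Duplicate PCR products were not separated.

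The members and gene lists were chosen with earlier results of these data known. Named are all members, the myosin heavy chains Myh7, Myh2, Myh1 and Myh4, list genes called or among the 3 smallest p of a list, and the 10 genes most like the summed slow level. T3, T4 and C4 were described and left out after their values were seen. Alternatives were DESeq2 1.42.0, limma-voom 3.58.1, DESeq2 size factors, no filter on low counts, only the groups compared, a robust fit, a replicate block, and each mouse left out.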

Additional observations from a re-analysis of the deposited data

Results flagged for a closer look

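In each group of 4 mice, the level of each member and each slow share was checked for a mouse far from the other 3, by Dixon's ratio of the gap to the range. In 64 such groups of values, 1 was past the critical value, and chance gives about 1 in 20. Myl1 in E1 was at 3723 FPKM, against 3329 FPKM in the next mouse of the E group, with a ratio of 0.865.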

How the results depend on the processing

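In 124 recounts under other settings, 0 members were called, and 1199 of 1240 fitted values kept their sign (41 reversed). Values turned mostly without T3 and T4: in T vs C Tnni1 to -0.35, Tnnt1 to -0.31, Tnnc1 to -0.44, Myl2 to -0.25, Myl3 to -0.37, Tnnt3 to 0.030 and Tnnc2 to 0.049; in TE vs T Tnni2 to -0.0064, Tnnt3 to -0.042, Tnnc2 to -0.092 and Myl1 to -0.053; in the interaction Tnni1 to 0.089, Tnnt1 to 0.0060, Tnnc1 to 0.062, Myl2 to 0.16 and Myl3 to 0.14. Without C4, T3 and T4, Tnnc1, Myl2, Myl3, Tnnt3 and Tnnc2 were at -0.090, -0.014, -0.037, 0.024 and 0.054 in T vs C, Tnni1, Tnnt1, Tnnc1 and Myl3 at 0.19, 0.18, 0.15 and 0.088 in E vs C, and Tnni2, Tnnt3, Tnnc2 and Myl1 at -0.0064, -0.042, -0.092 and -0.053 in TE vs T. With limma-voom and sample weights Myl3 was at -0.011 in T vs C. These mice were left out after their slow levels were seen, and the fits hold fewer mice.

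Leaving out single mice gave ranges that crossed 0 for Tnnt1 (-0.049 to 0.74), Tnnc1 (-0.11 to 0.67) and Myl3 (-0.14 to 0.46) in T vs C, for Tnni1 (-0.43 to 0.19), Tnnt1 (-0.32 to 0.18), Tnnc1 (-0.42 to 0.15) and Myl3 (-0.44 to 0.087) in E vs C, and for Myl2 (-0.21 to 0.0034) and Mylpf (-0.014 to 0.047) in TE vs E. The mean slow share ranged from 1.00% to 1.45% in C, 1.096% to 1.26% in E, 1.38% to 2.02% in T and 0.879% to 0.996% in TE. On the CPM scale with TMM, which is not divided by length, it was 1.56% in C, 1.46% in E, 2.34% in T and 1.19% in TE, and with exon union lengths, chosen after seeing the data, 1.14%, 1.07%, 1.68% and 0.853%. No pair had a member under 10 FPKM.

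The counts of genes called moved more than the members. DESeq2 called 423 genes in T vs C, 252 in E vs C, 7 in TE vs T, 179 in TE vs E and 21 in the interaction, and no filter gave 174, 45, 3 and 69 in the first 4. Only the groups compared gave 30 in T vs C, 183 in E vs C and 96 in TE vs E, DESeq2 size factors 21 in E vs C, and limma-voom 141 in E vs C and 61 in TE vs E. Without T3 and T4 the counts were 23, 193 and 105 in T vs C, E vs C and TE vs E, and without C4, T3 and T4 they were 3, 28 and 69. An unadjusted p under 0.05 was reached by 2093, 2092, 867, 1361 and 1358 genes, and a fold above 2 as well left 42, 7 and 11 in T vs C, E vs C and TE vs E. Leaving out single mice gave 16 to 255 genes in T vs C, 0 to 127 in E vs C, 0 to 2 in TE vs T, 18 to 69 in TE vs E and 0 to 1 in the interaction. The causes were not tested. With the replicate number as a block, E vs C had 25 genes, Tnni1 was at -0.92 in TE vs T, and no member was called. The numbers name different mice, and deviations of same-numbered mice correlated from -0.24 to 0.21.

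With 4 mice in a group and slow levels that differ up to 4.56-fold within it, the SE of the slow members was 0.28 to 0.38 in the comparisons of groups and 0.40 to 0.53 in the interaction, which limits the size of difference that could be called.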
